A study of Mus musculus with 12 samples.

Results

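Dense clusters of CTCF sites are stretches of mouse liver chromatin in which CTCF peaks followed each other at short distances. They were chosen by the fed peak calls and their positions, and starved peaks entered only where peaks were joined into sites. Overlapping peaks (1 bp or more) of the 6 libraries were joined, which gave 76061 sites. Of these, 44909 had a peak in all 3 fed libraries and are called fed sites here. Neighbouring fed sites with midpoints at most 5 kb apart were chained, and the chains of 3 or more sites made up the clusters. This gave 5062 clustered sites in 1526 chains, or 11.27% of the fed sites. Without fed library 2, the same rule gave 8017 sites in 2334 chains. The other 39847 fed sites stood alone (29821 sites) or in pairs (10026 sites). The fed calls and the spacing of fed peaks that chose the clusters are described without a test.

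CTCF was measured by chromatin immunoprecipitation sequencing (ChIP-seq) in whole liver of wild-type male C57BL6/Ncrl mice, aged 3 to 4 months and kept on normal chow. One group (n = 3 libraries) was starved for 24 h and collected at ZT13, and the other (n = 3 libraries) was fed freely and collected at ZT16, where ZT counts hours from lights on. Starvation and collection time therefore cannot be told apart. Both groups were precipitated with the same Diagenode antibody, C15410210, and the inputs were not analysed here. The starved lists held 30752, 23926 and 29866 peaks, against 56103, 49030 and 74950 peaks in the fed lists. Read depth was not given in the sources used here. Nothing in the labels ties the libraries to separate mice, so every p-value measures the spread between libraries, which may be technical. Whole liver mixes hepatocytes with other cells, and peak lists measure no expression, so the tissue label could not be set against marker levels.

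CTCF is a zinc finger protein that binds a long DNA motif and halts the cohesin ring as it extrudes chromatin loops, which places many CTCF sites at loop anchors and domain boundaries. Neighbouring sites can act together, and arrays of them are known at imprinted genes, antigen receptor loci and the protocadherin genes.

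Printed here are promoters inside clustered sites that were chosen for holding a match to the CTCF core. They do not stand for clustered sites in general. An annotated gene start lay inside 9.25% of clustered sites, and 24.0% of the promoters overlapping clustered sites held the core. The 100 bases below surround the CTCF core CCNNNAGNNGGC, which was searched on both strands (its reverse complement is GCCNNCTNNNGG), and the capitals mark it. They are RefSeq promoter sequences of build GRCm38.p6, the same assembly as mm10, written 5′ to 3′ on the strand of the gene. The 3 Slc29a1 starts with a match are shown because they lie in one chain and differ in how many starved libraries called them. Cebpb, Flt3l, Snhg7 and Gm33663 are shown as sites called in every library, and Mfsd6l as a site that no starved library called.
Slc29a1 start in the site of fed rank 88.5 (chr17:45597226-45597325, minus strand): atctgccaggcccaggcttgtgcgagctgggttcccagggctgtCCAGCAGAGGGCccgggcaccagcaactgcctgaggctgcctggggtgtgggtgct
Slc29a1 start in the site of fed rank 65.2 (chr17:45593769-45593868, minus strand): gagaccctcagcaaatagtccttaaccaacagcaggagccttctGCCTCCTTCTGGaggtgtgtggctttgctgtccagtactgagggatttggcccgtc
Slc29a1 start in the site of fed rank 45.1 (chr17:45595531-45595630, minus strand): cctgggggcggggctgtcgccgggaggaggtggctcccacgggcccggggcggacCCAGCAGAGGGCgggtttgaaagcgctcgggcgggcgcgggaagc
Cebpb (chr2:167688665-167688764, plus strand): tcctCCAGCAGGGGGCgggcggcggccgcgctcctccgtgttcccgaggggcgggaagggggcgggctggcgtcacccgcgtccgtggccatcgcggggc
Flt3l (chr7:45136452-45136551, minus strand): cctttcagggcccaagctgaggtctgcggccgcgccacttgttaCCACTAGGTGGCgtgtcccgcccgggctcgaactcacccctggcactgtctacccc
Snhg7 (chr2:26640282-26640381, minus strand): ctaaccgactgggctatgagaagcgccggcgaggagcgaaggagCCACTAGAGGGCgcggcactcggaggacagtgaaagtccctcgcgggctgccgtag
Gm33663 (chr7:143466498-143466597, minus strand): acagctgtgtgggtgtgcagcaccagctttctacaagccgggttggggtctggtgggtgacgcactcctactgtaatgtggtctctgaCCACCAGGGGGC
Mfsd6l (chr11:68555995-68556094, plus strand): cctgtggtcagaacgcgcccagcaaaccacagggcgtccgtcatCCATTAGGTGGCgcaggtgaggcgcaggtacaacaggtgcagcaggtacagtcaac

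Every promoter printed was chosen for a match to the core, so its presence could not separate these sites. The Slc29a1 starts at fed rank 88.5 and 45.1 both read CCAGCAGAGGGC, yet the site of rank 88.5 was called in 3 starved libraries and that of rank 45.1 in 1. The motif of the Slc29a1 start at fed rank 65.2 lies on the opposite strand, 163 bases from the start, and its site was called in 2 starved libraries. Fed rank is the mean, over the 3 fed lists, of the percentile of the site's best peak score within its own list. A peak's score is the authors' own value, and it ranks peaks within one list only. Flt3l, which encodes a growth factor of blood progenitors, had a site of fed rank 92.8. Cebpb encodes a transcription factor of liver metabolism, and its site had a fed rank of 98.0. Snhg7, a host gene of small nucleolar RNAs, had a site of fed rank 96.1, and the site at Gm33663 had 97.8. Mfsd6l, whose site had a fed rank of 31.2, carries CCATTAGGTGGC 135 bases from its start. A match of these letters is a description and not evidence that CTCF binds them.

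Across all promoters inside fed sites, the clustered ones held the core about as often as the others. The motif was found in 139 of 579 promoters (24.0%) that overlapped a clustered site and in 967 of 3938 promoters (24.6%) that overlapped another fed site. It was found in 8.61% of all 32851 promoters, each reaching from 250 bases before to 50 bases after a start, and in 6.08% of those without a fed site. The share was higher at better scored sites in both classes. At fed ranks of 80 to 100 it was 34.3% in clustered and 35.5% in other fed promoters. Under rank 40 it was 11.6% in clustered and 16.9% in other fed promoters, with 147 and 1124 promoters. Median GC content was 62.7% in clustered promoters, 63.7% in other fed promoters and 52.7% in all promoters.

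Clusters lay closer to gene starts than the rest of the fed sites. Of the clustered sites, 41.1% had an annotated gene start within 5 kb and 16.9% within 1 kb, against 25.7% and 13.6% of the other fed sites. The median distance to a start was 7.36 kb for clustered and 16.39 kb for other fed sites. The window reaching 50 kb to either side of a site held a median of 5 genes in all for clustered sites and 3 for other fed sites. The share inside a gene body differed less, at 61.8% of clustered and 63.2% of other fed sites. Counting 1 start per gene, the span held no annotated gene start in 911 chains (59.7%), 1 start in 461 (30.2%), 2 in 141 (9.24%) and 3 or more in 13, with 4 at most. Within 5 kb of a start, pairs lay between clustered and single sites, with 34.7% against 22.6% of single sites. Within 1 kb, pairs were close to clustered sites, at 16.6%, against 12.6% of single sites. Chains of 5 or more sites were not closer to starts, with 38.5% within 5 kb and 13.8% within 1 kb. By chromosome, the clustered share of fed sites ran from 3.12% on X to 15.4% on chromosome 11 and 14.7% on chromosome 5. Chromosome Y stood apart with 15 of its 19 fed sites in 2 chains.

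**Figure D1:**
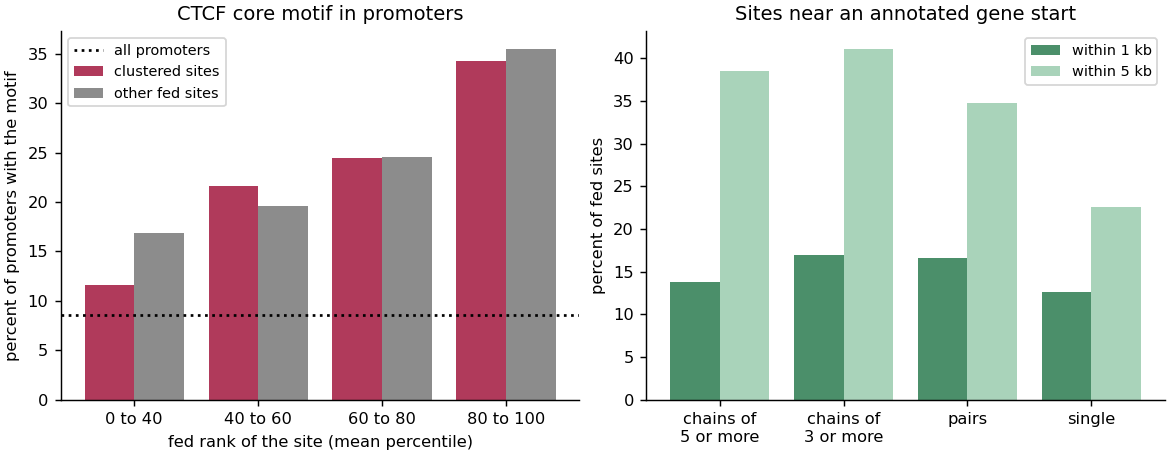
Left, percent of promoters holding the CTCF core, by fed rank of the overlapping site, for clustered sites and other fed sites, with all promoters at 8.61% as the dotted line. Right, percent of fed sites within 1 kb or 5 kb of an annotated gene start, which is 41.1% within 5 kb for chains of 3 or more sites and 22.6% for single sites.

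Most chains were short. There were 1180 chains of 3 sites, 248 of 4, 73 of 5, 15 of 6, 6 of 7, 3 of 8 and 1 of 9. Midpoints within a chain were a median of 2536.2 bp apart (391 to 5000 bp), and 327 gaps (9.25%) were under 1000 bp. A chain spanned a median of 6540 bp (1539 to 24695 bp), and all chains together covered 10440 kb. Another chain lay within 50 kb of 310 chains (20.3%). Among all neighbouring fed sites, 717 pairs had gaps of 4500 to 5000 bp, just inside the limit, and 760 had gaps of 5000 to 5500 bp, just outside it. Sites in chains of 3 and in chains of 2 were alike in fed rank, with medians of 60.6 and 61.0.

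Starved livers called clustered sites about as often as other fed sites. Of the 5062 clustered sites, 3601 (71.1%, exact binomial 95% interval 69.87 to 72.38, which covers counting error only) were called by 1 or more starved libraries, against 70.9% of all fed sites. All 3 starved libraries called 2437 clustered sites (48.1%), against 49.3% of all fed sites, and none called 1461 (28.9%), against 29.1%. By library, the first starved library called 66.67% of clustered and 64.65% of other fed sites, with 64.9% over all fed sites. The second called 49.76% of clustered and 51.86% of other fed sites, with 51.6% over all. The third called 62.31% of clustered and 63.78% of other fed sites, with 63.6% over all. The mean share was 59.58 ± 8.78% for clustered and 60.1 ± 7.15% for other fed sites (SD, n = 3 starved libraries). The difference of -0.52 points (SD 2.22) had an exact two-sided sign-flip permutation p of 0.75, where 0.25 is the smallest that 3 libraries allow. Clustered sites had the higher share in 1 of 3 libraries. For denser clusters, chained at 2.5 kb, the difference was -4.52 points, and for chains of 4 or more sites it was -2.12 points (exact sign-flip permutation p 0.25 and 0.5).

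A site's score in fed livers went with its call in starved livers, in clusters and outside them. Clustered sites of fed rank 80 to 100 were called in at least 1 starved library without exception, and so were the other fed sites of that range. At fed rank 40 to 50, 52.9% of clustered and 46.1% of other fed sites had a starved call. At fed rank 20 to 30, the shares were 16.2% of clustered and 11.8% of other fed sites. The first starved library had the widest of these gaps: clustered sites of fed rank 50 to 60 were called in 71.1% of cases and other fed sites in 62.3%. In the second starved library the same range gave 22.8% of clustered and 27.0% of other fed sites. In the third it gave 65.0% of clustered and 65.4% of other fed sites. With the other fed sites weighted to the fed ranks of the clustered ones, clustered minus other was 3.85, -0.78 and 0.59 points in the 3 starved libraries. Clustered sites were also more often at the extremes of fed rank. Ranks over 90 held 15.3% of clustered and 12.0% of other fed sites, and ranks of 20 to 30 held 10.1% and 8.86%.

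**Figure D2:**
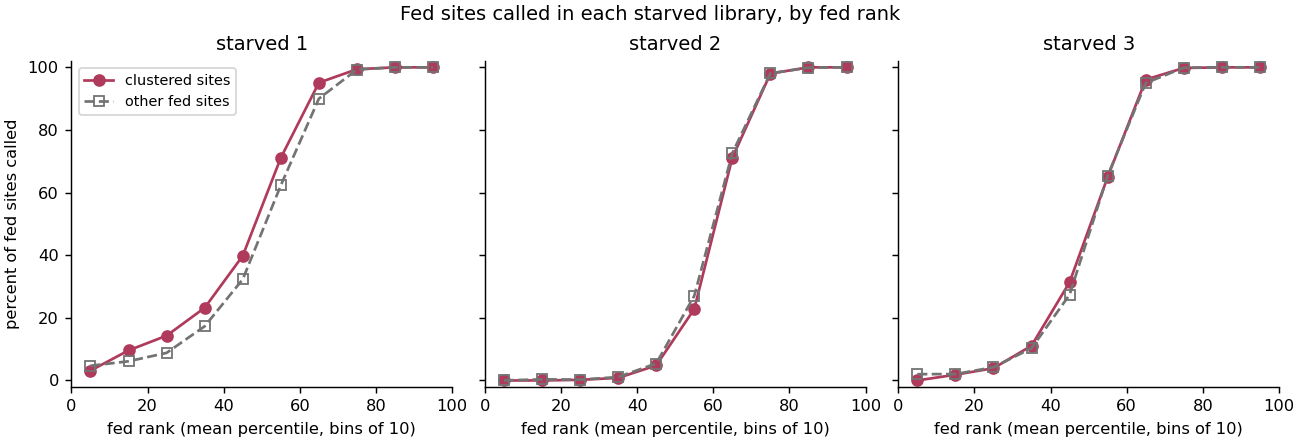
Percent of fed sites called in each starved library (one panel per library) against fed rank in bins of 10, for clustered sites (filled circles) and other fed sites (open squares). Both classes run from near 0 at low rank to 100% at high rank, and the clustered line lies above the other from rank 10 to 70 in the first starved library, as at rank 50 to 60 (71.1% against 62.3%).

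Sites within one cluster differed widely in fed rank. Ordering the sites of a chain by fed rank fixes a drop from best to weakest in advance. No like groups of other fed sites were set beside it. The best site of a chain had a median fed rank of 87.06 and the weakest of 34.1, and in chains of 3 the ranks spanned a median of 40.98 points. Adjacent sites had nearly unrelated fed ranks (Pearson r 0.07 and Spearman rho 0.07 over 3536 pairs, which share their libraries and, in part, their sites). Starved calls fell from best to weakest site, as they fell with fed rank in and outside clusters. In chains of 3, all 3 starved libraries called the best site in 84.5% of chains, the next in 48.8% and the weakest in 14.1%. The shares with at least 1 starved call were 95.8%, 77.5% and 41.0%. In chains of 5, the best site had a starved call in 100% of 73 chains and the weakest in 27.4%. The best site of a 3-site chain was as often the leftmost (403 chains) as the middle (403 chains) or the rightmost (374 chains). Sites at the ends of chains were called in all 3 starved libraries in 49.7% of cases and inner sites in 45.8%, and their median fed ranks were 61.3 and 57.8.

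**Figure D3:**
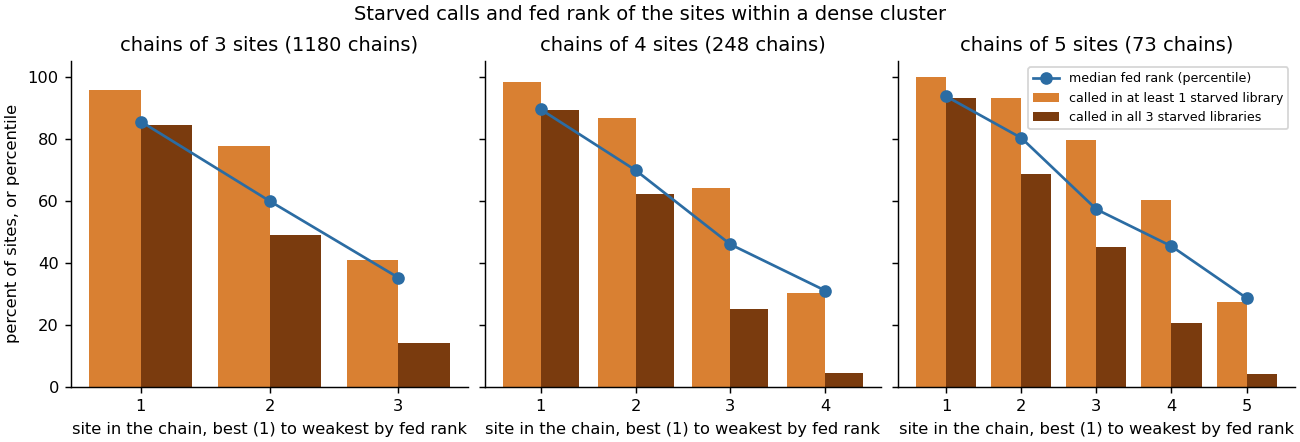
Sites of chains of 3, 4 and 5, ordered from best (1) to weakest by fed rank, with bars for the percent of sites called in at least 1 and in all 3 starved libraries and a line for median fed rank. In chains of 3 the bars for all 3 starved libraries stand at 84.5%, 48.8% and 14.1% while median fed rank is 85.5, 59.9 and 35.2.

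In each range of fed rank given here, starved calls were somewhat less frequent beside a nearest neighbour in all 3 starved libraries than beside one in none. Between fed ranks 40 and 50, a starved call was made at 52.4% of sites (46.26 to 58.56) whose nearest neighbour was in all 3 starved libraries. It was made at 57.4% (49.72 to 64.8) of those whose neighbour was in none. Between ranks 50 and 60 the shares were 80.9% (75.42 to 85.61) and 86.2% (80.05 to 91.06). Between ranks 30 and 40 they were 23.7% (18.65 to 29.28) and 27.1% (20.75 to 34.16). The exact binomial intervals overlapped, but they cover counting error only and sites of one chain are not independent. The difference was not tested. Clustered sites that held an annotated gene start had a starved call in 81.2% of 468 cases, against 70.1% of 4594 clustered sites without a start. The median fed rank was close in both, at 59.7 in those with a start. Other fed sites showed shares of 77.5% with a start and 70.3% without one. For calls in all 3 starved libraries, the shares were 49.6% of clustered sites with a start and 48.0% without, and 48.1% and 49.5% of other fed sites.

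Of the 1526 chains, 1325 (86.8%) had at least 1 site that every starved library called, and 165 (10.8%) had this at all their sites. The matching site-level share was 49.3% in the fed set as a whole, and a chain has several chances to hold such a site. Groups of other fed sites were not built for comparison, so whether chain counts differ from those of unrelated sites was not tested. Every site was called in at least 1 starved library in 508 chains (33.3%). In 27 chains (1.77%) no site had a starved call. Chains with 3 or more sites in all 3 starved libraries numbered 271 (17.8%). By library, 576, 294 and 490 chains had 3 or more sites called in starved libraries 1, 2 and 3. Every site was called in 414, 182 and 344 chains in those libraries, and no site at all in 44, 183 and 72 chains.

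The chain with the most sites lay over Slc29a1, which encodes a nucleoside transporter of the plasma membrane. Its 9 sites spanned chr17:45578554-45599808 (mm10), and 4 of them held a RefSeq start of that gene, alternative starts included. Starved libraries 1, 2 and 3 called 7, 5 and 7 of the 9 sites, and 5 sites were in all 3. Over all fed sites these libraries called 64.9%, 51.6% and 63.6%, and 49.3% were in all 3. Counts in this and the following named chains are too small to be set apart from such shares. The site 3.24 kb into the chain lay at score percentiles 83.1, 79.6 and 81.6 of the starved lists and at 96.1, 87.4 and 95.5 of the fed lists. Lists of unequal length make such percentiles a position within a list and not a change. The start-bearing site at 16.44 kb was at percentile 9.4 in starved library 1 and absent from the other 2, and at 36.5, 42.3 and 56.6 in fed lists. The last site, at 20.62 kb, had no starved peak and lay at 42.9, 33.9 and 55.2 in the fed lists. The 4 sites missing from at least 1 starved list had fed ranks of 65.2 or less, and the 5 sites in every starved list had 81.0 to 93.0.

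Arhgef19, which encodes an exchange factor for small GTPases, had 8 sites over chr4:141252683-141277377. The sites at 15.14 and 20.48 kb had fed ranks of 97.5 and 97.4 and were in every starved library. The site at 20.48 kb scored at percentiles 98.3, 97.8 and 99.3 in starved lists and at 98.4, 99.6 and 94.1 in fed lists. The sites at 8.69, 16.47 and 24.28 kb, with fed ranks of 20.7, 47.2 and 32.0, had no starved call. The missed site at 16.47 kb thus lay between the 2 best sites of the chain.

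Cbx8, which encodes a chromobox protein of the Polycomb group that reads repressive histone marks, had 7 sites over chr11:119043703-119059022, the nearest 2.8 kb from the gene. All 7 had a starved call, 4 of them in all 3 libraries, where the shares over all fed sites were 70.9% and 49.3%. Its fed ranks were even, from 45.3 to 70.8. Starved libraries 1, 2 and 3 called 4, 5 and 7 of these sites.

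**Figure D4:**
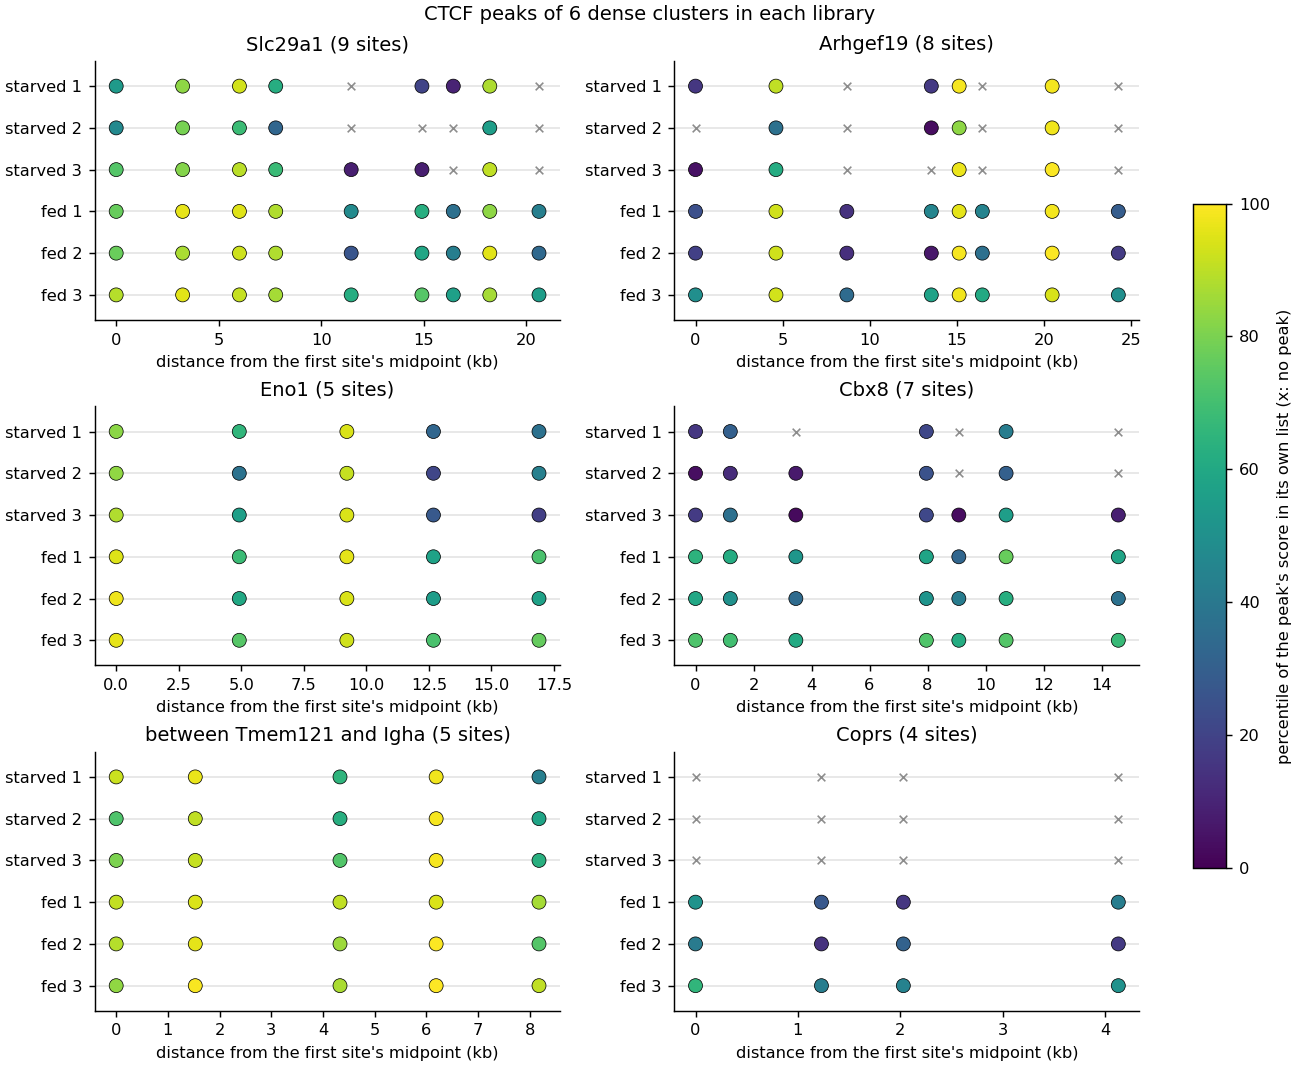
Sites of 6 clusters against distance from the midpoint of their leftmost site (kb), with 1 row per library, starved libraries above fed ones. Dot colour is the percentile of the peak's score in its own list and a cross marks no peak, so the Eno1 rows show all 5 sites in every library and the Coprs rows show all 4 missing from the starved ones.

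Other chains with many sites lay at Cxxc5, 3.3 kb from Ube2d2a (8 sites, 3 in all 3 starved libraries), at Trmt1, Lyl1 and Nfix (7 sites, 4) and at Vdac1 (7 sites, 3). Vdac1 encodes the main channel of the mitochondrial outer membrane. A chain of 7 sites lay 5.4 kb from Eno1, a glycolytic enzyme gene, and 3 of its sites were in all 3 starved libraries. A separate chain of 5 sites over Eno1 itself, at chr4:150247774-150265435, was called at every site in every starved library. Chromosome Y held chains of 8 and 7 sites, with 7 and 3 sites in all 3 starved libraries. The authors' treatment of reads that map to several places is not stated in the labels, so the Y sites are uncertain.

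The longest chains called in full by all 3 starved libraries had 5 sites, and one of them lay between Tmem121 and Igha. It spanned chr12:113215614-113224767, 26.1 kb from Tmem121 and 31.4 kb from Igha, at the constant end of the immunoglobulin heavy chain locus. An array of CTCF sites is known there in B cells. Its fed ranks ran from 83.3 to 97.9. The site at 6.19 kb scored at percentiles 97.9, 98.8 and 98.6 in starved lists and 94.4, 99.6 and 99.8 in fed lists. Even its weakest site, at 8.18 kb, was in every list, at 42.9, 58.3 and 63.0 in starved and 86.5, 73.2 and 90.3 in fed lists. Chains of 4 over Cd82, over Gng7, beside Dipk1b and Snhg7 and 60.4 kb from Smad2 were also called in full.

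The longest chains that no starved library called ranked low to middling in fed livers. Coprs, which encodes a partner of the arginine methyltransferase Prmt5, had 4 sites over chr8:13887783-13892277 with fed ranks of 27.7 to 52.8. Its best site scored at percentiles 51.4, 41.4 and 65.4 of the fed lists. Abhd17c, a gene of a depalmitoylating enzyme, had 4 sites with a mean fed rank of 17.9. The chains at Papola, Dexi, Rnf43 and Sipa1l3 had 3 sites each and mean fed ranks of 49.2, 45.0, 39.2 and 37.3.

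Chains with the best mean fed ranks had 3 sites each and were called in full by every starved library. They included those over Gm14206 (mean fed rank 96.3), Ncs1, Ripor3 (94.2), Sp6 and Scrn2 (93.5), and beside Cdkn1c (93.4). Cdkn1c encodes an imprinted inhibitor of the cell cycle, and its chain also covered the RNA gene Gm33663, whose start is printed above. The site at that start scored at percentiles 98.3, 79.1 and 92.6 in starved lists and at 99.8, 93.9 and 99.6 in fed lists. The tightest chains of 4 or more sites had mean gaps of 1.01 to 1.19 kb and lay at Vav2, Adm, Ppm1g, Lima1 and Myc. All 4 sites at Lima1 had a starved call and none was in all 3 starved libraries.

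Genes of the listed pathways with a clustered site nearby were counted beside the share over all genes. Of 14326 genes with a fed site within 5 kb, 1704 (11.9%) had a clustered site there. Among genes of fatty acid and sterol synthesis the count was 4 of 25, and among those of fatty acid oxidation and ketogenesis 3 of 16. It was 1 of 16 for gluconeogenesis and its regulators, 5 of 29 for insulin, AMPK and mTOR signalling, 3 of 16 for clock genes and 4 of 23 for hepatocyte identity genes. Housekeeping genes had 3 of 18, imprinted genes 2 of 26, Hox genes 3 of 29, body patterning factors 2 of 37 and histone genes 2 of 14. Genes for CTCF, cohesin and their partners had 2 of 16. The clustered protocadherins had 17 of 47, but these genes overlap and share 1 chain of 3 sites. Markers of other liver cells had 2 of 8 for stellate cells, 1 of 2 for lymphocytes, and 0 of 1, 0 of 6 and 0 of 3 for Kupffer, endothelial and bile duct cells. Most of these shares stand near the background, the counts are small, and nothing particular to a list can be read from them.

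Over all fed sites, 70.9% had a starved call and 49.3% were in all 3 starved libraries, and the counts at single genes below are too small to be set apart from these shares. Sites were counted within 5 kb of a gene, and some of them lie inside another gene. Of the lipid synthesis genes, Acacb, the mitochondrial acetyl-CoA carboxylase that restrains fat burning, had 6 clustered sites in 2 chains, of which 5 had a starved call and 1 was in all 3 starved libraries. Their fed ranks were 23.2 to 67.6. Mlxipl, the carbohydrate-responsive factor ChREBP, had 4 clustered sites, 2 of them in all 3 starved libraries. Elovl6, a fatty acid elongase, had 3, of which 1 had a starved call and none was in all 3. Fads2, a fatty acid desaturase, had 2, of fed rank 35.5 and 92.3, of which 1 was in all 3. Both lay inside the neighbouring gene Fads3.

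Of the oxidation genes, Ehhadh, a peroxisomal enzyme, had 3 clustered sites, each called in starved library 1 and in neither of the others. Hadha and Acadvl, mitochondrial enzymes, had 1 clustered site each, with a starved call at Hadha and none at Acadvl. Those sites lay inside the neighbouring genes Garem2 and Dvl2. Pcx, which makes oxaloacetate for new glucose, had 2 clustered sites of fed rank 17.3 and 29.7, both with a starved call and neither in all 3. The site of fed rank 17.3 lay inside the neighbouring gene Rce1.

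Among signalling genes, Irs1, an adaptor of the insulin receptor, had 4 clustered sites, 3 with a starved call and 2 in all 3 starved libraries. Akt1, a kinase below it, had 4, with 3 called and 1 in all 3. Igfbp1, a secreted binding protein of insulin-like growth factors made in fasting liver, had 3, with 2 in all 3. Gsk3a, a kinase that restrains glycogen synthesis, also had 3, with 2 in all 3.

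The clock genes Bhlhe40, Arntl and Npas2 had 5, 3 and 3 clustered sites, of which 1, 2 and 1 were in all 3 starved libraries. Bhlhe40, a repressor, had the widest range of fed ranks of these, from 5.9 to 95.1. Of the liver identity genes, Cebpb had 2 clustered sites within 5 kb, both in all 3 starved libraries. The hepatic transcription factor genes Onecut1 and Foxa1 had 4 each, with 3 and 2 in all 3. Apoe, an apolipoprotein gene, had 4 with 1 in all 3. Of the CTCF and cohesin genes, Ctcfl, the germline paralogue of CTCF, had 3 clustered sites with 1 in all 3, and Zfp143, a promoter-binding factor, had 3 with none in all 3.

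Chains were then built anew from each library's own peaks, with the same distance, to ask how densely each list was clustered. In starved libraries 8.91%, 5.69% and 8.21% of the peaks lay in chains of 3 or more, against 18.5%, 15.66% and 29.06% in fed libraries. Every starved value lay below every fed value. The means were 7.61 ± 1.69% in starved and 21.08 ± 7.06% in fed libraries (SD, n = 3 each), a difference of -13.47 points. These values are given without a test, since the fed lists and the same spacing chose the clusters. With the 23926 best-scored peaks of every list, which is the length of the shortest, the order was the opposite. Starved libraries then had 5.4%, 5.69% and 5.27% and fed libraries 4.56%, 4.64% and 4.0%. Those means were 5.45 ± 0.22% in starved and 4.4 ± 0.35% in fed libraries (SD, n = 3 each), a difference of 1.05 points. The sign of this difference thus depended on the number of peaks taken from each list. The rule that chose the clusters depended on it as well, with 775 clustered sites in 249 chains, or 3.57% of fed sites, at equal length.

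**Figure D5:**
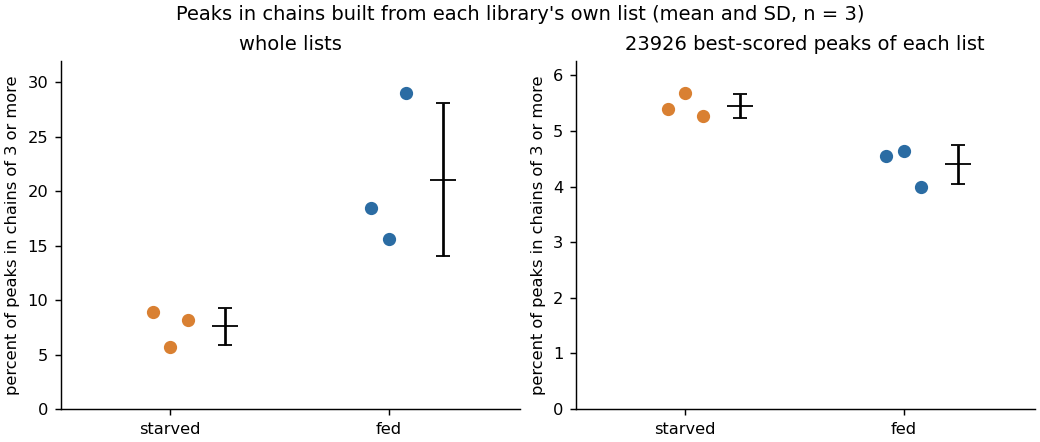
Percent of each library's peaks in chains of 3 or more of its own peaks, for starved (left) and fed (right) libraries, as points with the mean and SD (n = 3 each) beside them. With whole lists the starved points (5.69% to 8.91%) lie below the fed ones (15.66% to 29.06%), and with 23926 peaks from each list they lie above them.

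Score rank and width were compared over the 22131 sites called in all 6 libraries, of which 2437 were clustered, ranked anew within each library. Over all fed sites, clustered sites had the slightly lower median fed rank, 59.97 against 61.16 for other fed sites. Among the sites called in all 6 libraries, clustered ones ranked above the others in every library. The median rank of clustered minus other sites was 7.36, 6.79 and 7.11 points in starved libraries and 5.88, 6.1 and 6.42 points in fed libraries. The means were 7.09 ± 0.28 in starved and 6.13 ± 0.27 in fed libraries (SD, n = 3 each), and the difference of 0.95 points had an exact two-sided permutation p of 0.1, the smallest that 3 against 3 libraries allow. It was 0.4 (exact permutation p 0.9) with equal lists and 0.2 (exact permutation p 0.6) without starved library 2, and it turned to -0.69 with chains of 4 or more and to 2.31 with chaining at 2.5 kb. The fed lists chose the clusters and the starved lists did not, so the rank and width differences do not compare them on equal terms. Their p-values are no clean test of starvation. Over the 3 starved libraries alone, the median rank of clustered minus other sites was above 0 in 3 of 3. The exact sign-flip p was 0.25, the smallest possible. This contrast is not independent of the fed lists, because its sites had to be called in all 6 libraries. Fed ranks over 90 also held 15.3% of all clustered and 12.0% of all other fed sites. Peaks at clustered sites were also wider, by factors of 1.095, 1.071 and 1.1 in starved and of 1.078, 1.087 and 1.104 in fed libraries. The starved minus fed difference of these factors was -0.001 (exact permutation p 1.0). Mean peak widths at those clustered sites were 479.9, 283.3 and 391.8 bp in starved and 765.7, 682.2 and 902.9 bp in fed libraries, and closely spaced peaks can be joined by a caller.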

How the data were processed

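CTCF ChIP-seq peak lists of 3 starved and 3 fed liver libraries were analysed. The submitters' processing notes name the build mm10 and the tools MACS2, HOMER, BWA 0.7.5a, bedtools 2.17, SAMtools and FastQC, with no role or setting. The deposited lists give a position and a score per peak. The score is the authors' own value, its definition was not found in the labels, and it was used to rank peaks within a list and, in one alternative, as a common lower limit. Whether replicates or inputs were pooled in calling is not given either, but each library has its own list.

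Sites were made with an overlap of 1 bp, and chains with a distance of 5 kb. Gene positions and promoters came from RefSeq tables of GRCm38.p6, and 440 of 441 listed genes were matched, 33 by an older symbol. The members and gene lists were chosen with earlier results of these data known. Named chains are the 10 with the most sites, the 6 longest called at every site in all 3 starved libraries, the 6 longest called in none, the 6 of best mean fed rank, the 5 tightest with 4 or more sites, and chains at up to 4 genes per list; some of them are not reported here.

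Shares of peaks in own chains are described, and their planned test is not reported, since the fed lists chose the clusters. Other group differences were tested by exact permutation of the library labels over all 20 labellings, and contrasts within starved libraries by exact sign flips. The fed lists chose the clusters in the rank and width comparisons too, which limits those p-values. Scripts were checked on simulated lists. Python 3.11.15, pandas 2.3.3, numpy 2.4.6 and scipy 1.17.1 were used. No pairing was used in the main tests, because the labels do not say what a shared replicate number marks. In a later check, same-numbered starved and fed libraries did not deviate together (correlations 0.01, -0.03 and 0.01).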

Additional observations from a re-analysis of the deposited data

How the results depend on the processing

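The share of clustered minus other fed sites called in starved libraries was -0.52 points. It changed sign with peaks at or above the median score of all lists (5.68), equal list lengths (0.57), peaks merged over 500 bp (0.14) and 10 kb chaining (1.23). It was -4.52 at 2.5 kb and -2.12 with chains of 4 or more, and ran from -2.49 to 0.27 when 1 library was left out. The starved minus fed share of peaks in own chains was -13.47 points, turned to 1.05 with equal lengths, and was -3.29 with the score limit, -8.6 with 500 bp merging, -7.1 at 2.5 kb, -21.99 at 10 kb and -7.8 with chains of 4 or more. It ran from -16.18 to -9.47 without 1 library. Added after the data were seen, chains at 11963 peaks per list gave 0.37 and lists thinned evenly to 23926 peaks gave 0.66. The rank difference of 0.95 turned to -0.04 with the score limit and -0.69 with chains of 4 or more. It was 2.31 at 2.5 kb, 0.22 at 10 kb and 0.4 with equal lengths or 500 bp merging, and ran from 0.2 to 1.78 without 1 library. The width difference of -0.001 turned to 0.007 with 500 bp merging and 0.002 with 10 kb chaining, and ran from -0.008 to 0.004. The causes were not tested.

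Clustered sites and chains numbered 1125 and 354 with the score limit, 775 and 249 at equal length, 1411 and 445 at 2.5 kb, 12229 and 3317 at 10 kb, and 1522 and 346 with 4 or more sites per chain. Leaving out 1 library gave 5062 to 8017 sites and 1526 to 2334 chains, with 8017 and 2334 without fed library 2. With the replicate block, which exchanges labels within same-numbered pairs, exact permutation p was 0.25 for rank and 1.0 for width, with unchanged differences of 0.95 and -0.001, and the paired own-chain difference was also -13.47. Same-numbered libraries share only a number. Widths with peaks trimmed to 200 bp were not run, since that fixes the width. With 3 libraries a group, no comparison could reach 0.05. Read depth was also unknown.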
